A study of Caenorhabditis elegans with 6 samples.

Results

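Mitochondrial ribosomal protein genes of Caenorhabditis elegans were followed through whole-adult mRNA libraries of 3 strains. The members are all rows of the deposited gene table whose gene name is mrpl or mrps, a hyphen and a number, with at least 10 counts in at least 2 libraries. This rule matched 66 of 46748 rows, and all 66 met the count minimum. By name, 39 encode proteins of the large subunit (mrpl) and 27 proteins of the small subunit (mrps). The lowest count of any member in any library was 351, so no member lay near the minimum; the member nearest to it, mrpl-55, still had 690 counts in the second highest of its libraries.

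The mitochondrial ribosome translates the few proteins encoded on mitochondrial DNA, which are subunits of the respiratory chain and of ATP synthase. Its RNAs are transcribed from mitochondrial DNA, whereas its proteins are encoded in the nucleus, made in the cytosol and imported. Many of these proteins have a counterpart in bacterial ribosomes, and the others were gained in mitochondria. In C. elegans, lowering the expression of mrps-5 is known to extend lifespan and to switch on the mitochondrial unfolded protein response, and mitochondrial DNA is amplified as the germline grows.

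The study compared adults of the strains SIN (OD1175), WT (OD1463) and N2, with 2 libraries each. In SIN and WT worms both the deletion allele csr-1(tm892) and the transgenes were homozygous; these worms were picked by their motility from the progeny of balanced heterozygous mothers. What SIN stands for is not in the labels; as the study is known, SIN worms carry a slicing-inactive form of the Argonaute protein CSR-1 and WT worms its normal form, while N2 is the standard laboratory strain without a transgene. Each library was made from 100 gravid adults, kept on OP50 bacteria at 20 °C, and all libraries were sequenced on a single lane. The sources used here do not give the promoters of the transgenes or the number of independent lines. The labels do not say whether the replicates were separate cultures, so p-values measure only how far these libraries differ, a spread that may be technical.

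The 6 libraries held 33739391 to 44962816 counts, and 15404 genes had enough counts to be tested. Levels below are counts after TMM scaling for library size (CPM) or, where genes are compared with each other, reads scaled to both gene length and library size (RPKM). The csr-1 gene itself was at 2910 and 3310 CPM in SIN, 662 and 636 in WT and 445 and 476 in N2, which separates the libraries as they are labelled. Summed over 10 germline marker genes, levels were 6334 and 6427 CPM in SIN, 6264 and 6053 in WT and 5639 and 5610 in N2. These sums hold genes that moved apart: against WT, 5 of the 10 fell in SIN and 2 rose. Without the helicase gene glh-1, left out after its values were seen, the sums were 4853 and 4664 CPM in SIN, 5750 and 5504 in WT and 5342 and 5247 in N2. Summed sperm markers stood apart in SIN, at 76.6 and 64.2 CPM, against 10.2 and 12 in WT and 8.04 and 7.69 in N2. Most of the SIN sums came from fog-3, picked after its values were seen. It had 55.7 and 37.1 CPM in SIN, 2.59 and 2.12 in WT and 0.865 and 1.39 in N2. Of the 9 sperm markers tested, 4 rose in SIN against WT, where 12.1% of all genes tested did. The part of either marker list in the results below was not tested. In whole worms, fewer cells of a type and less RNA per cell cannot be told apart.

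As a group, the mitochondrial ribosomal protein genes were highest in the WT strain. Summed over the 66 genes, the level was 2917 and 2839 CPM in the SIN libraries, 3656 and 3822 in the WT libraries and 2622 and 3312 in the N2 libraries. Both WT libraries were above the other 4, and the N2 libraries differed from each other more than the libraries of the other strains did. The second WT library was the highest of the 6 for 42 members and the first WT library for 15, while the first N2 library was the lowest for 34. By group mean, 46 members ran WT, N2, SIN in falling order, 15 ran WT, SIN, N2, and 5 ran SIN, WT, N2.

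**Figure D1:**
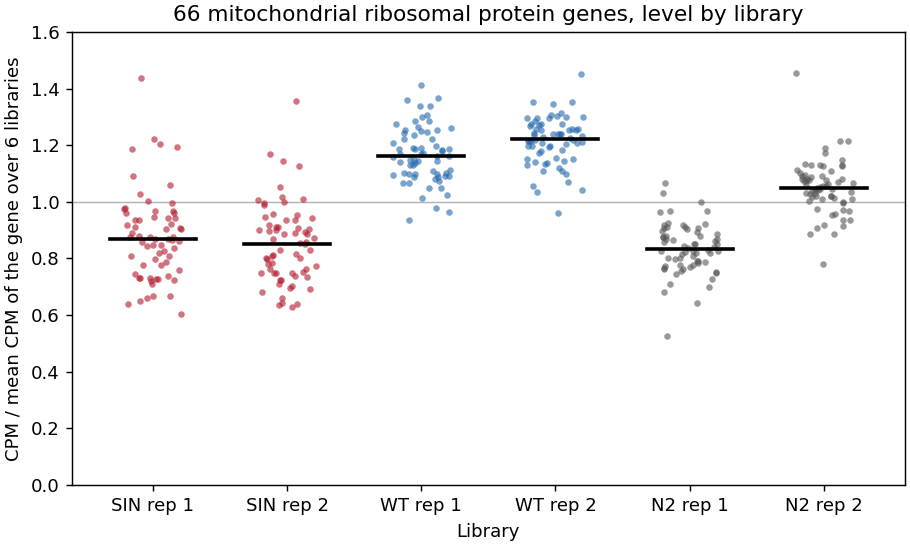
Level of each of the 66 mitochondrial ribosomal protein genes in each library (points), as CPM divided by the mean CPM of that gene over the 6 libraries; bars are medians over the genes. The medians were 0.869 and 0.852 in SIN, 1.16 and 1.22 in WT, and 0.834 and 1.05 in N2.

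Per length, the members were well expressed, and the highest and the lowest member lay further apart in SIN than in WT and N2. Their median mean over the 6 libraries was 51.0 RPKM, against 5.83 RPKM for all genes tested. The ratio of the highest to the lowest member was 15.2 and 14.3 in SIN, 5.23 and 6.03 in WT, and 6.03 and 6.26 in N2. These ratios rest on few genes. The lowest was mrpl-54 in every library, and the highest was mrps-14 in SIN and mrpl-11 in WT and N2. The length of mrpl-54 is questioned below, so the ratios may be overstated in every strain. At the top were mrpl-11, whose bacterial counterpart lies at the base of the stalk where translation factors bind, with 129 ± 14 RPKM in SIN, 109 ± 1.2 RPKM in WT and 92.0 ± 8.8 RPKM in N2, then mrps-14 and mrpl-9. The small-subunit gene mrps-14 had 153 ± 7.8 RPKM in SIN, 96.6 ± 1.7 RPKM in WT and 67.6 ± 15 RPKM in N2 (SD, n = 2 throughout). The large-subunit gene mrpl-9 had 90.5 ± 2.3 RPKM in SIN, 98.2 ± 9.8 RPKM in WT and 79.2 ± 8.8 RPKM in N2, with means that differed by about as much as libraries of a strain did. Averaged over the 6 libraries, mrpl-11 stood at 110 RPKM and mrps-14 at 106 RPKM, a gap within the spread between libraries.

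The lowest levels per length were those of mrpl-54, mrps-28 and mrps-31. The deposited gene length of mrpl-54 is 1241 bases, although the annotation gives its gene a span of 402 bases, so its 10.4 ± 0.11 RPKM in SIN, 19.5 ± 1.7 RPKM in WT and 15 ± 1.0 RPKM in N2 may be understated in every strain. The same holds to a lesser degree for mrpl-34, mrpl-51 and mrps-18A, whose deposited lengths also exceed their annotated spans. Of the other low members, mrps-28 had 20.8 ± 2.4 RPKM in SIN, 25.9 ± 0.83 RPKM in WT and 24.1 ± 0.40 RPKM in N2, and mrps-31 had 25.4 ± 0.22 RPKM in SIN, 29.3 ± 0.45 RPKM in WT and 27.1 ± 3.3 RPKM in N2. Differences between strains are unaffected by gene length, since each gene is compared with itself.

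SIN was compared with WT to ask what changes when CSR-1 cannot cut its targets. The strains also differed in csr-1 mRNA, at 2910 and 3310 CPM in SIN and 662 and 636 in WT. The parts of lost cutting and of csr-1 level in the results were not tested apart. Of the 66 genes, 33 fell in SIN and 0 rose by the quasi-likelihood test of edgeR, with p-values adjusted by Benjamini-Hochberg over all genes tested, at an adjusted p under 0.05; of all genes tested, 13.3% fell and 12.1% rose. The falls were 1.29-fold to 2.07-fold, with a median of 1.67-fold. Both SIN libraries were below both WT libraries in 61 members (35.0% of all genes tested) and above both in 5 (38.4% of all genes tested), and in no member did the groups overlap. The median log2 fold change of the members was -0.46, with a range of -1.05 to 0.56, against 0.04 for all genes tested.

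At an unadjusted p under 0.05, 42 members were lower and 1 was higher in SIN (20.2% and 19.3% of all genes tested), and DESeq2 called 38 lower and 1 higher, with 15.9% and 11.9% of all genes it tested. The authors' deposited table also has 38 members lower and 1 higher at an adjusted p under 0.05, where 16.9% and 12.8% of its genes pass in those directions. These calls rest on having both SIN and both WT libraries: without the first or the second WT library 1 member fell each time (0.639% and 0.68% of all genes tested), without the first or the second SIN library 2 fell (1.79% and 0.887%), and without either N2 library 53 fell (21.5%), while the median log2 fold change stayed between -0.51 and -0.43. Only mrpl-39 passed in all 6 of these fits, and mrps-16 passed in all but those without a WT library. With upper-quartile scaling, 21 members fell and 1 rose (7.97% and 15.1% of all genes tested), the median of the members was -0.32 and that of all genes 0.17, so that the members lay 0.50 below all genes (log2), as with TMM.

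**Figure D2:**
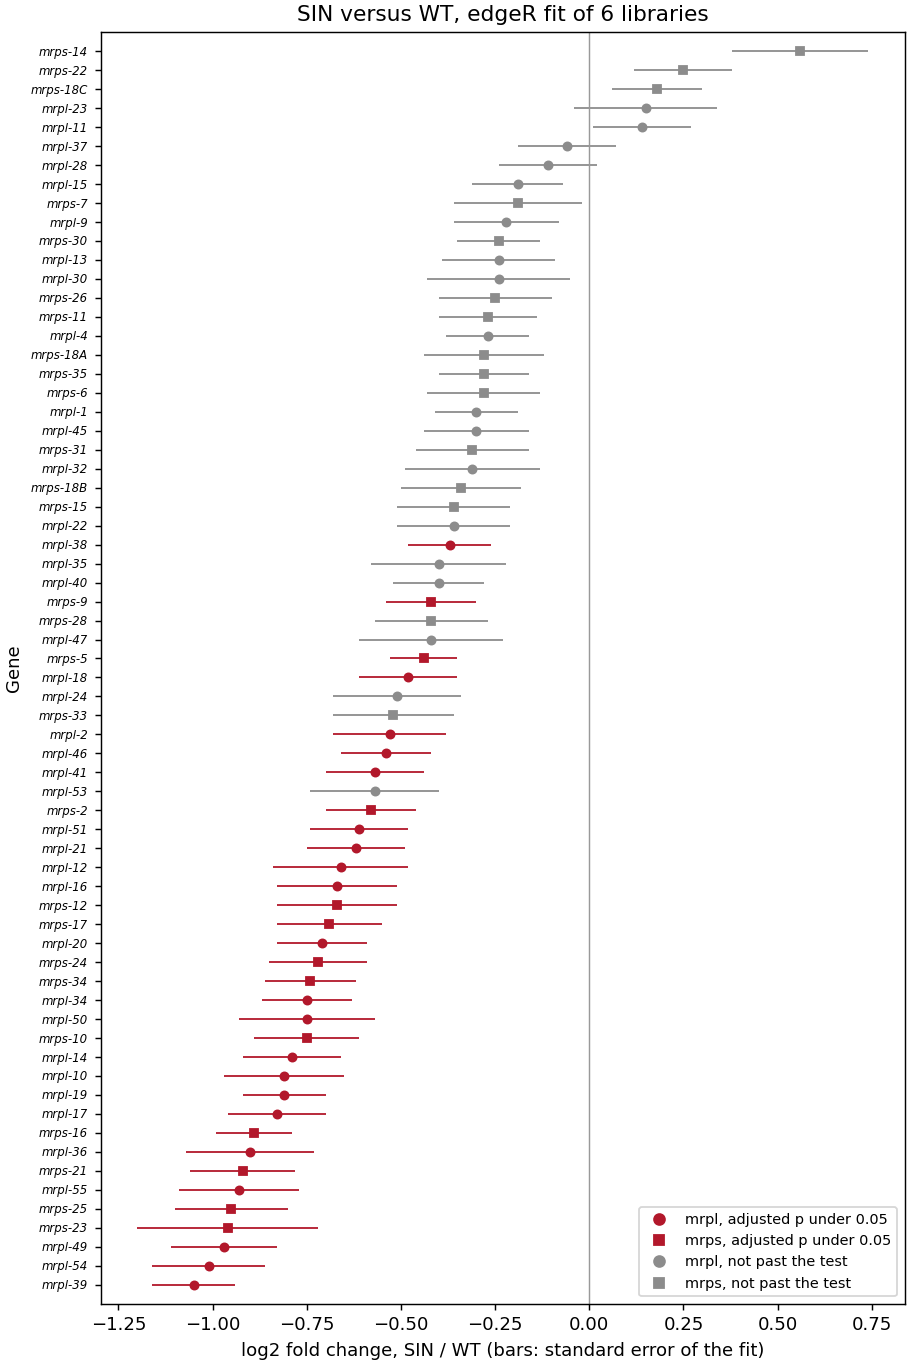
Log2 fold change of SIN over WT for each of the 66 genes, sorted, with bars of 1 standard error of the edgeR fit (circles mrpl, squares mrps; red, adjusted p under 0.05). The values run from 0.56 for mrps-14 to -1.05 for mrpl-39, and all 33 red points lie below 0.

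Among large-subunit genes, 21 of 39 fell, with a median log2 fold change of -0.53. The gene with the smallest p was mrpl-39 (WBGene00044344; chromosome V, 1821579 to 1823096, plus strand, WBcel235), which encodes a protein gained in mitochondria. It had 22.9 and 22.2 CPM in the SIN libraries, 47.3 and 45.9 in the WT libraries and 37.7 and 36 in the N2 libraries. Both SIN libraries were below the other 4, the fold change of SIN over WT was -1.05 ± 0.11 (log2, standard error) with an edgeR adjusted p of 0.00257, and it ran from -1.08 to -1.03 when single libraries were left out. Its gene overlaps Y32G9B.1 on the other strand; the library kit keeps strand, but the sources used here do not give the strand setting of the counting.

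The genes mrpl-49 and mrpl-54, for other large-subunit proteins gained in mitochondria, also fell. For mrpl-54, the SIN libraries had 12.4 and 12.4 CPM, the WT libraries 26.5 and 23.4 and the N2 libraries 17.2 and 20.4, a log2 fold change of -1.01 ± 0.15 against WT (edgeR adjusted p = 0.00819). For mrpl-49, SIN had 15.6 and 16.1 CPM, WT 31.8 and 30.3 and N2 20.8 and 25.1, with a log2 fold change of -0.97 ± 0.14 (edgeR adjusted p = 0.00757). In both genes all SIN libraries were lower than any library of the other strains.

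Large-subunit genes with a bacterial counterpart fell as well. The gene mrpl-19, whose bacterial counterpart sits at the interface of the subunits, had 33.4 and 32.9 CPM in SIN, 59.5 and 56.4 in WT and 44.7 and 51.1 in N2, and its log2 fold change against WT was -0.81 ± 0.11 (edgeR adjusted p = 0.00635). It overlaps gcy-28 on the other strand. The genes mrpl-17 and mrpl-34, which encode the counterparts of the bacterial large-subunit proteins of the same number, fell by 0.83 ± 0.13 and by 0.75 ± 0.12 on the log2 scale (edgeR adjusted p = 0.00926 and 0.00943). The gene mrpl-12, for the mobile stalk protein that contacts translation factors, had 36.6 and 40.0 CPM in SIN, 59.2 and 62.1 in WT and 41.5 and 60.9 in N2, and fell by 0.66 ± 0.18 on the log2 scale against WT (edgeR adjusted p = 0.0427). The member of lowest count, mrpl-55, had 11.2 and 9.79 CPM in SIN, 20.1 and 19.9 in WT and 14.2 and 17.1 in N2, a log2 fold change of -0.93 ± 0.16 against WT (edgeR adjusted p = 0.0117).

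The highest large-subunit genes did not pass the test. The log2 fold change of SIN over WT was 0.14 ± 0.13 for mrpl-11 (edgeR adjusted p = 0.462) and -0.22 ± 0.14 for mrpl-9 (edgeR adjusted p = 0.270). For mrpl-11 the SIN libraries had 91.4 and 80.0 CPM and the WT libraries 77.0 and 78.6 CPM, so the lower SIN library was close to the higher WT library.

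Among small-subunit genes, 12 of 27 fell, with a median log2 fold change of -0.42. The smallest p was that of mrps-16 (WBGene00018961; chromosome II, 5474373 to 5475420, plus strand), which encodes a counterpart of bacterial S16. It had 28.7 and 29.4 CPM in SIN, 54 and 53.5 in WT and 44.5 and 48.8 in N2, a log2 fold change of -0.89 ± 0.10 against WT (edgeR adjusted p = 0.00386). The SIN libraries were again below the other 4. On the same strand, mrps-16 overlaps ilcr-2, so their reads may be split between both genes.

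The bacterial-type genes mrps-21 and mrps-10 and the mitochondria-specific genes mrps-25 and mrps-34 fell too. For mrps-21 the SIN libraries had 15.7 and 14.1 CPM, the WT libraries 27 and 29.3 and the N2 libraries 16.6 and 18.3, a log2 fold change of -0.92 ± 0.14 against WT (edgeR adjusted p = 0.00847), with N2 close to SIN. For mrps-25 they were 21.9 and 25.2 CPM in SIN, 46.6 and 44.6 in WT and 30.0 and 37.4 in N2, a log2 fold change of -0.95 ± 0.15 (edgeR adjusted p = 0.00909). The fold change was -0.74 ± 0.12 for mrps-34 and -0.75 ± 0.14 for mrps-10 (log2; edgeR adjusted p = 0.00945 and 0.0148).

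The gene known from lifespan work, mrps-5 (chromosome V, 12563487 to 12565801), fell as well. It had 89.1 and 90.0 CPM in SIN, 120 and 123 in WT and 91.5 and 106 in N2. The log2 fold change was -0.44 ± 0.09 against WT (edgeR adjusted p = 0.0202), -0.14 ± 0.09 against N2 (edgeR adjusted p = 0.302) and 0.30 ± 0.09 for WT over N2 (edgeR adjusted p = 0.173). The WT libraries were thus the high ones, and SIN and N2 did not differ past the threshold. The call against WT was lost without any 1 of the SIN or WT libraries, with adjusted p from 0.108 to 0.146, and with upper-quartile scaling.

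The members were also split by whether their proteins have a bacterial counterpart. Of 44 genes with a counterpart, 21 fell, with a median log2 fold change of -0.42, and of 22 mitochondria-specific genes 12 fell, with a median of -0.56; the difference was not tested. This grouping was made from background knowledge after the values had been seen. Of the 47 members that overlap no other protein-coding gene, 25 fell, and of the 19 that do, 8 fell. Of all genes tested 13.3% fell, and the difference by overlap was not tested.

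**Figure D3:**
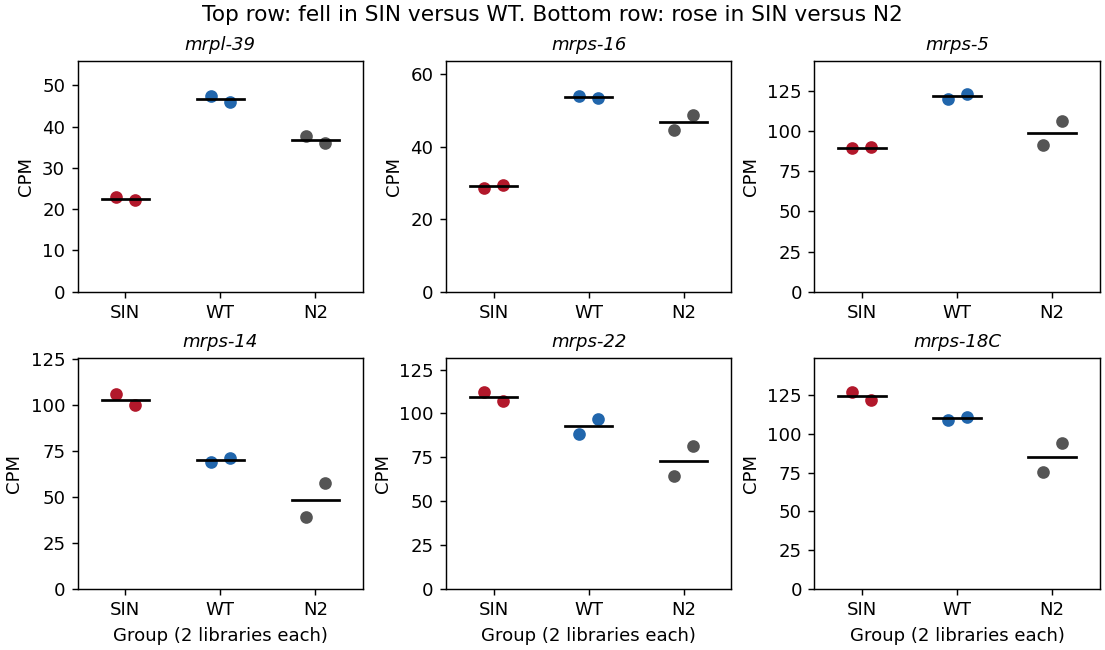
CPM in each library (points) with the group mean (bar) for 6 genes; top row, 3 genes that fell in SIN against WT, and bottom row, 3 that rose in SIN against N2. In mrpl-39 and mrps-16 both SIN libraries are below every other library, and in mrps-14, mrps-22 and mrps-18C both are above.

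SIN was next set against N2, which shares the SIN libraries with the comparison above. By the edgeR test, 11 members fell and 3 rose, where 13.3% and 12.3% of all genes tested did, so the shares of members called, 16.7% and 4.55%, were near and below the background. The median log2 fold change was -0.14, against -0.07 for all genes tested. Both SIN libraries were below both N2 libraries in 29 members (33.1% of all genes tested) and above both in 8 (29.6% of all genes tested).

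The counts in SIN versus N2 turned on single libraries. Without the first N2 library 29 members fell (18.9% of all genes tested), and without the second 6 fell and 9 rose (21.6% and 15.7%), with a median of 0.04. Without the first or the second WT library 2 fell (5.3% and 3.92% of all genes). Without the first SIN library 0 fell and 0 rose (1.57% and 2.81% of all genes), and the same held without the second (1.64% and 4.0%). DESeq2 called 13 lower and 5 higher (14.8% and 12.9% of the genes it tested), and fitting the 4 compared libraries alone left 2 lower and 3 higher (4.09% and 8.44% of all genes).

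The members that fell against N2 were mrpl-39, mrps-16, mrpl-19, mrps-10, mrpl-54, mrpl-49, mrpl-55, mrpl-36, mrpl-17, mrps-25 and mrps-23, the last 6 of which are named from the full list. The log2 fold change of SIN over N2 was -0.71 ± 0.11 for mrpl-39 and -0.68 ± 0.10 for mrps-16, each with an edgeR adjusted p of 0.00725. It was -0.53 ± 0.11 for mrpl-19 (edgeR adjusted p = 0.0188), -0.59 ± 0.14 for mrps-10 (edgeR adjusted p = 0.0285) and -0.60 ± 0.15 for mrpl-54 (edgeR adjusted p = 0.0332). In each of these 5 genes both SIN libraries were below both N2 libraries.

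The 3 members that rose against N2 were small-subunit genes by name. The counterpart of bacterial S14, mrps-14 (WBGene00011334; chromosome II, 10240277 to 10242490, minus strand), had 106 and 100 CPM in SIN, 69.1 and 71.2 in WT and 38.9 and 57.7 in N2. All SIN libraries were higher than every other, and the N2 libraries differed widely. The log2 fold change of SIN was 1.10 ± 0.18 over N2 (edgeR adjusted p = 0.0104) and 0.56 ± 0.18 over WT (edgeR adjusted p = 0.0659). The second value passed with DESeq2 (adjusted p = 0.0276), with upper-quartile scaling and without either N2 library, and the first ran from 0.83 to 1.41 as libraries were left out, with adjusted p from 1.15e-05 to 0.0876.

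The mitochondria-specific gene mrps-22 had 112 and 107 CPM in SIN, 88.5 and 96.8 in WT and 64.2 and 81.4 in N2. Its log2 fold change was 0.59 ± 0.13 over N2 (edgeR adjusted p = 0.0203) and 0.25 ± 0.13 over WT (edgeR adjusted p = 0.201). The name mrps-18C stands for a counterpart of bacterial S18. The reference gene names give mrps-18.C to another gene, T14B4.2, and the identity of mrps-18C was not tested. The gene mrps-18C had 127 and 122 CPM in SIN, 109 and 111 in WT and 75.5 and 94.4 in N2. Its log2 fold changes were 0.55 ± 0.12 over N2 (edgeR adjusted p = 0.0191) and 0.18 ± 0.12 over WT (edgeR adjusted p = 0.300). In all 3 genes SIN was highest and N2 lowest, and all 3 calls against N2 were lost without either SIN library, that of mrps-18C also without the first WT library.

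The close upstream neighbour of mrps-14 also differed. On the same strand, nrde-2, a nuclear RNA interference factor, ends 105 bases upstream of mrps-14. It had 1600 and 1720 CPM in SIN, 194 and 196 in WT and 158 and 150 in N2, and rose in SIN against WT by 3.09 ± 0.10 on the log2 scale (edgeR adjusted p = 5.94e-05). Whether reads or transcripts that run on from nrde-2 contribute to the value of mrps-14 was not tested.

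WT was compared with N2 to see how worms with the normal transgene relate to worms without it. No member passed the edgeR test in either direction, where 0.0454% of all genes tested rose and 0.0649% fell. All 66 log2 fold changes were positive (47.2% of all genes tested), from 0.06 to 0.69, with a median of 0.34 against -0.03 for all genes. Both WT libraries were above both N2 libraries in 56 members (25.4% of all genes tested). At an unadjusted p under 0.05, 34 members were higher in WT (8.78% of all genes tested), and DESeq2 called 13 higher (4.86% of the genes it tested).

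The first N2 library weighed on this difference. Without it the median log2 fold change of WT over N2 was 0.18 with 0 called, and without the second N2 library it was 0.54 with 54 members higher past the test (10.9% of all genes). The first N2 library also had the lowest summed levels of 10 muscle markers and of 10 epidermis markers: muscle markers were at 2782 and 3202 in WT and 1697 and 3704 in N2, and epidermis markers at 2471 and 3222 in WT and 1061 and 3221 in N2. None of the 10 muscle and 8 epidermis markers tested passed the edgeR test in WT versus N2. Markers of the embryos carried in the uterus set the same library apart on the high side, at 117 and 108 CPM in SIN, 128 and 123 in WT and 191 and 141 in N2; of the 9 tested, 3 fell in SIN against N2 and 0 passed in WT versus N2. In SIN the first library was low in both lists, with 1877 and 2991 CPM for muscle and 1380 and 2488 CPM for epidermis, whereas the members' sums in the SIN libraries were close. The part of these differences in the members' levels was not tested.

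**Figure D4:**
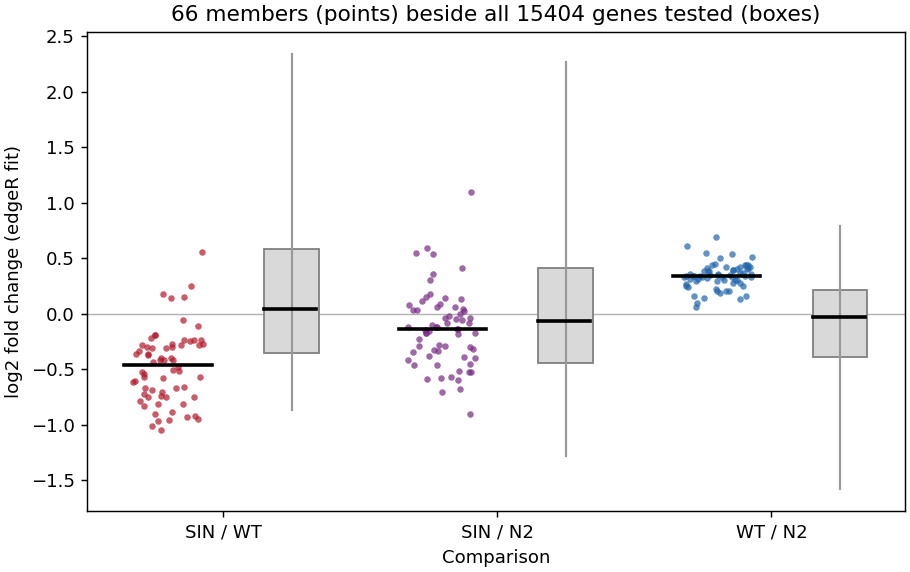
Log2 fold changes of the 66 genes (points, bars are medians) beside those of all 15404 genes tested (boxes are quartiles with the median, whiskers the percentiles from 5 to 95) in 3 comparisons that share libraries. The members' medians are -0.46 for SIN over WT, -0.14 for SIN over N2 and 0.34 for WT over N2; the medians of all genes are 0.04, -0.07 and -0.03.

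The deposited table lists, from other studies, the small RNAs that point to each gene. CSR-1 is guided by 22G RNAs, small RNAs that start with a G and pair with germline transcripts. In the 22G reads credited to Claycomb, a normalized score, 55 of the 66 members (83.3%) are listed, against 26.7% of all genes tested. In the 22G RNA of a CSR-1 immunoprecipitate credited to Conine, in reads scaled to library size (RPM), 60 members (90.9%) are listed, against 34.1%. Both columns list 52 members, and 3 members are in neither. In the germline-expressed class of the same table stand 49 members (74.2%), against 30.0% of all genes tested.

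The listed members carried moderate amounts of 22G RNA. The median was 76.1 in the Claycomb score, against 98.0 for all listed genes tested, and 30.4 RPM in the immunoprecipitate, against 38.2 RPM. In the Claycomb score the top members were mrps-30 with 222, mrps-26 with 186 and mrps-18A with 161, and in the immunoprecipitate mrps-26, followed by mrps-14 with 87.1 RPM and mrps-22 with 82.1 RPM. In mammalian mitochondrial ribosomes, the proteins of mrps-30 and mrps-18A sit in the large subunit despite their names. The log2 fold change of SIN over WT was -0.24 ± 0.11 for mrps-30, -0.25 ± 0.15 for mrps-26 and -0.28 ± 0.16 for mrps-18A, none past the edgeR test (adjusted p = 0.153, 0.255 and 0.241).

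Other members stand out by 22G reads relative to expression. The authors' ratio of Claycomb reads to N2 RPKM is highest for mrpl-54, at 6.24, then mrps-30, at 4.96, and mrps-18A, at 4.12; for mrpl-54 and mrps-18A the ratio rests on the RPKM whose length was questioned above. Against WT RPKM the 3 highest were mrpl-54 with 4.79, mrps-30 with 4.32 and mrps-35 with 3.48. The deposited enrichment score over input, a fraction, was highest for mrpl-11, mrpl-12 and mrps-34, at 0.937, 0.935 and 0.934.

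Members with more 22G RNA were less reduced in SIN. Of the 20 members with least 22G RNA in the immunoprecipitate, 15 fell, with a median log2 fold change of -0.70; of the next 20, 11 fell, with a median of -0.52; and of the 20 with most, 4 fell, with a median of -0.26. Ranked by the Claycomb score, 12 of the lowest 18 fell, 7 of the middle 19 and 4 of the highest 18, with medians of -0.59, -0.36 and -0.26. All listed genes tested, split in the same way into 3 groups, showed the same order: their medians were -0.30, -0.11 and 0.15 by the immunoprecipitate and -0.37, -0.18 and 0.15 by the Claycomb score. Of all listed genes, 35.0%, 23.3% and 15.1% fell in the low, middle and high group by the immunoprecipitate, and 43.0%, 26.3% and 10.6% by the Claycomb score. The groups cover unlike ranges, since the highest began at 40.6 RPM for members and at 54.9 RPM for all listed genes, and at a Claycomb score of 93.3 for members and 141 for all listed genes, so groups of the same rank are not matched in 22G RNA.

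Of the 11 members without a Claycomb entry, 10 fell (90.9%), with a median log2 fold change of -0.75. Of the 55 listed members 23 fell (41.8%), with a median of -0.40. Over all genes the order was the other way. Of all 4114 listed genes tested 26.6% fell, with a median of -0.16, against 13.3% and 0.04 for all genes tested, listed or not. The immunoprecipitate did not set listed and unlisted members apart. Of the 6 members without an entry there 3 fell, with a median of -0.49, against 30 of the 60 listed, with a median of -0.46. Of all genes listed there 24.5% fell. All 5 genes above 0 in SIN versus WT are listed in both columns, mrps-14, mrps-22, mrps-18C, mrpl-23 and mrpl-11 (mrpl-23 was picked after its values were seen). In the germline-expressed class 23 of 49 members fell (46.9%), with a median of -0.42, and outside it 10 of 17 did (58.8%). Of all 4624 genes tested in that class, 1340 fell (29.0%), with a median of -0.22. The background of that class is thus higher than the 13.3% of all genes tested, whereas members fell less often inside it than outside. In the germline-specific class 10 of 19 members fell (52.6%), and outside it 23 of 47 did (48.9%). Of all 1056 genes tested in the germline-specific class 438 fell (41.5%), with a median of -0.36, against -0.37 for its members. These differences were not tested.

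Across genes, Spearman's rho between 22G RNA and the log2 fold change of SIN over WT was 0.64 for the 60 members listed in the immunoprecipitate, against 0.34 for all 5253 such genes, and 0.50 for the 55 members in the Claycomb list, against 0.53 for all 4114. Genes are not independent replicates, and all points share the same 4 libraries, so these values are descriptions. Gene length goes with both quantities: among members rho was 0.40 between length and fold change, against 0.02 over all genes tested, and 0.42 between length and 22G RNA in the immunoprecipitate, against 0.37 over all listed genes. With length held constant by partial rank correlation, rho was 0.58 for the immunoprecipitate, against 0.30 for all listed genes, and 0.45 for the Claycomb score, against 0.46. Between WT RPKM and the fold change, rho was 0.06 among members and -0.49 over all genes tested.

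**Figure D5:**
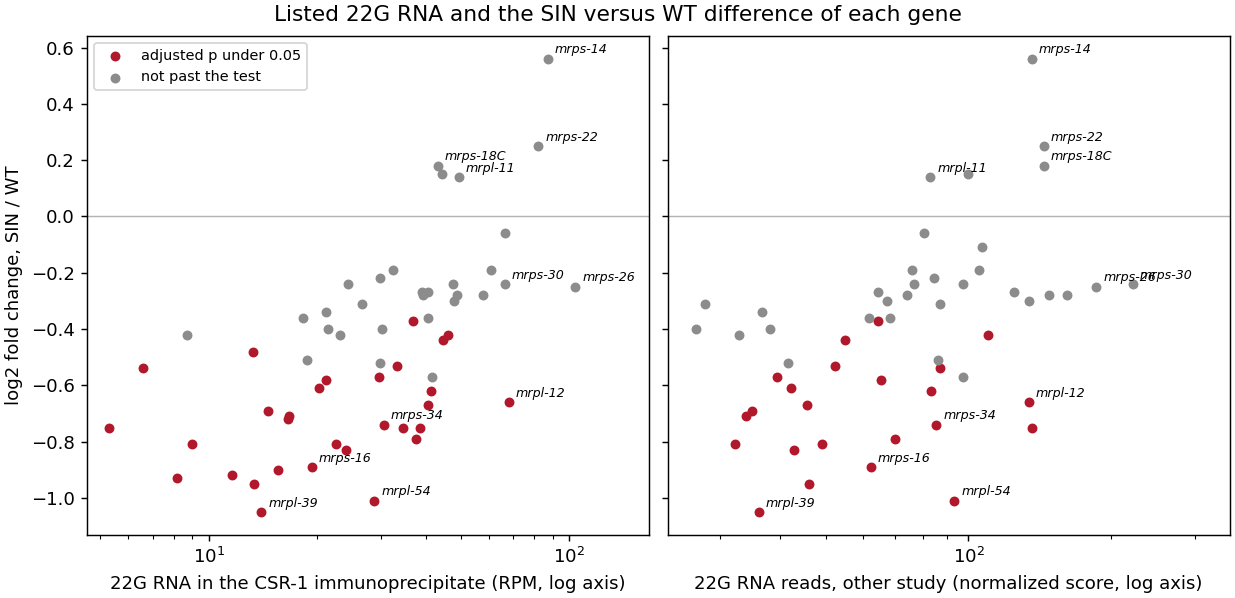
Log2 fold change of SIN over WT against the deposited 22G RNA of each listed member, in the CSR-1 immunoprecipitate (left, RPM, log axis, 60 genes) and in the Claycomb score (right, log axis, 55 genes); red points have an adjusted p under 0.05. The 5 genes above 0 lie in the right-hand part of the left panel. In the right panel mrpl-11, at a score of 83.1, lies near the middle and the others to its right. Spearman's rho is 0.64 on the left and 0.50 on the right.

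Other genes of mitochondrial gene expression were examined through gene lists in SIN against WT. Of 13 mitochondrial tRNA synthetases, 8 fell and 2 rose, with a median log2 fold change of -0.54; rars-2, for the arginine enzyme, fell by 0.73 ± 0.10 on the log2 scale (edgeR adjusted p = 0.00549). Of 13 translation and ribosome assembly factors, 5 fell and 1 rose. The assembly GTPase gene eral-1 had 25.9 and 24.5 CPM in SIN, 48.9 and 44.4 in WT and 48.0 and 46.1 in N2, and fell by 0.89 ± 0.11 (log2; edgeR adjusted p = 0.00473). The elongation factor gene tsfm-1 fell by 0.70 ± 0.12 (log2; edgeR adjusted p = 0.0100) and oxa-1, for the insertase of newly made inner membrane proteins, by 0.76 ± 0.17 (log2; edgeR adjusted p = 0.0229).

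The riser of that list was letm-1, an inner membrane protein, with 323 and 310 CPM in SIN, 198 and 202 in WT and 153 and 147 in N2, a log2 fold change of 0.66 ± 0.08 against WT (edgeR adjusted p = 0.00386). Of 5 genes for mitochondrial DNA expression and maintenance, the single-strand binding protein gene mtss-1 and the packaging protein gene hmg-5 fell, with log2 fold changes of -0.74 ± 0.12 and -0.54 ± 0.11 (edgeR adjusted p = 0.00997 and 0.0158). Both had SIN libraries below all libraries of WT and N2.

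Few of the mRNAs that the mitochondrial ribosome translates passed the test. Of 12 mRNAs encoded on mitochondrial DNA, 2 rose in SIN (16.7%, against 12.1% of all genes tested) and 10 did not pass the edgeR test. The median log2 fold change was 0.24, with 9 values above 0 and 3 below, the lowest at -0.11. Their sum was 10690 and 10350 CPM in SIN, 8948 and 9383 in WT and 8871 and 10460 in N2. The complex I subunit gene nduo-2 rose by 1.14 ± 0.27 against WT (log2, edgeR adjusted p = 0.0302). It had 35.2 and 22.9 CPM in SIN, 15.5 and 11 in WT and 22.6 and 28.9 in N2. The gene nduo-5, of the same complex, rose by 0.33 ± 0.09 against WT (log2, edgeR adjusted p = 0.0371). It had 507 and 481 CPM in SIN, 386 and 398 in WT and 509 and 523 in N2. In both genes WT was the low strain, and SIN and N2 did not differ past the threshold (edgeR adjusted p = 0.666 and 0.637). The libraries were selected for poly(A), which mitochondrial mRNAs carry only as short tails, so these levels depend on the selection.

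Nuclear genes of related machinery fell in shares from 28.6% to 65.8%, against 50.0% of the members and 13.3% of all genes tested; differences between lists were not tested. Of 38 nuclear genes of the respiratory chain 25 fell (65.8%) and 13 did not pass, with a median log2 fold change of -0.63, and of 77 cytosolic ribosomal protein genes 25 fell (32.5%) and 52 did not pass, with a median of -0.64. Of 17 protein import genes 6 fell (35.3%), among them tomm-20, for the outer membrane receptor, with a log2 fold change of -1.03 ± 0.17 (edgeR adjusted p = 0.00971). Of 14 mitochondrial stress response genes and proteases 4 fell (28.6%) and 1 rose: atfs-1, for the transcription factor of the mitochondrial unfolded protein response, fell by 0.80 ± 0.09 (log2; edgeR adjusted p = 0.00315), and its target hsp-6, the mitochondrial HSP70, had a log2 fold change of -0.45 ± 0.14 (edgeR adjusted p = 0.0530; hsp-6 was picked after its values were seen).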

How the data were processed

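Poly(A)-selected, strand-specific libraries were read as 50-base single ends, per the labels' protocols. The authors deposited raw read counts, whole numbers for each gene in each library; STAR, HTSeq, DESeq, DESeq2 and the build WBcel235 are named in the submitters' processing notes, without roles or versions. The deposited RPKM is a group value, which equalled a mean calculated here from counts and deposited lengths in 100% of genes (relative tolerance 1e-06). The log2 fold change of SIN over WT and its adjusted p-value, both as deposited, were read from the same table. From other studies the authors took a normalized 22G RNA score, its ratio to RPKM, 22G RNA in RPM and an enrichment score given as a fraction, per the file headers.

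Counts were tested with edgeR 4.0.16 (R 4.3.3, limma 3.58.1): filterByExpr with a minimum count of 10 and a total of 15, TMM scaling, and a robust quasi-likelihood fit of all 6 libraries, with Benjamini-Hochberg adjustment over 15404 genes within each comparison at 0.05. "Rose" and "fell" mean past that threshold, and values are mean ± SD of 2 libraries or log2 fold change ± standard error. TMM scaling takes most transcripts as unchanged, and counts measure shares of mRNA. DESeq2 1.42.0, other scalings and filters, a replicate block, 4-library fits and leaving out each library were alternatives. The scripts were tested on simulated data, where the share of false calls among all calls lay above the 0.05 aimed at. Positions and overlaps came from the Ensembl annotation of WBcel235.

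Members and lists were chosen with earlier results of these data known. Named are the called members of smallest p (10 each way in SIN versus WT, 5 otherwise), the 3 highest and 3 lowest by RPKM, mrps-5, the 3 highest in each 22G column used, the member nearest to the count minimum, and called list genes; others are marked. The library kit keeps strand, but the sources used here do not give the strand setting of the counting. The RPM of the immunoprecipitate's input was not used here. Sequences were not analysed here.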

Additional observations from a re-analysis of the deposited data

How the results depend on the processing

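In SIN versus WT, counts of members that fell changed with upper-quartile scaling (21, and 7.97% of all genes tested) and in the fit of the 4 compared libraries (53, and 22.4%), and ranged from 1 to 53 with 1 library left out. Without a filter on low counts 42 members fell, and 12.4% of all genes tested. Members that rose numbered 1 with upper-quartile scaling, with DESeq2, without a filter on low counts and with the replicate block. Of the genes each of these tested, 15.1%, 11.9%, 11.2% and 15.6% rose. In the 4-library fit 2 members and 21.7% of all genes rose. The number of members that rose also changed with 1 library left out. The members' median log2 fold change was -0.32 with upper-quartile scaling and -0.51 to -0.43 with 1 library left out. In SIN versus N2, 7 fell with RLE scaling (11.4% of all genes tested), 4 with upper-quartile scaling (9.67%), 2 in the 4-library fit (4.09%) and 0 to 29 with 1 library left out; 5 rose with DESeq2 and without a filter, and 0 to 9 with 1 library left out. Of all genes tested, 12.9% rose with DESeq2 and 10.7% without a filter. Without a filter 16 members fell (13.5% of all genes tested). The members' median ran from -0.32 to 0.04 as libraries were left out and changed sign without the second N2 library. In WT versus N2, 13 rose with DESeq2 (4.86%), 17 without a filter (3.26%) and 0 to 54 with 1 library left out, where the median ran from 0.18 to 0.54. The cause of these shifts was not tested.

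Of the named genes, these changed sign, and none of them passed the test in that setting. In SIN over N2, mrps-30 had a log2 fold change of 0.01 with RLE scaling and with DESeq2, 0.07 with upper-quartile scaling, 0.03 in the 4-library fit and 0.02 to 0.12 without the second SIN, WT or N2 library. With 1 library left out, SIN over N2 ran from -0.06 to 0.29 for mrpl-9, -0.16 to 0.29 for mrps-26, -0.15 to 0.30 for mrps-18A, -0.35 to 0.02 for mrps-31 and -0.28 to 0.04 for mrps-35, and WT over N2 from -0.03 to 0.34 for mrps-31 and -0.01 to 0.55 for mrpl-12. No named gene changed sign in SIN versus WT in the alternatives run.

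Same-numbered libraries deviated together (correlation 0.246 between WT and N2, 0.378 between SIN and N2, 0.334 between SIN and WT), but nothing in the labels pairs them and each comparison has only 2 numbers. With the replicate block, 36 members fell and 1 rose in SIN versus WT (16.2% and 15.6% of all genes tested), 12 fell and 4 rose in SIN versus N2 (16.3% and 15.5%), and 0 passed in WT versus N2. With 2 libraries a strain, small differences cannot be told from the spread between libraries; intervals for counting error alone would be narrower, since every member had at least 351 counts per library.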

Other observations

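The reference gene names call 4 further genes mrpl or mrps that the deposited table lists by sequence name: F02A9.4 (mrpl-44), K11B4.1 (mrps-27), CD4.3 (mrpl-48) and T14B4.2 (mrps-18.C). All 4 fell in SIN against WT, by 0.65, 0.62, 0.56 and 0.71 on the log2 scale (edgeR adjusted p = 0.0209, 0.0103, 0.0348 and 0.0224). They were found after the values of the members had been seen and entered none of the counts above. The gene T14B4.2 is not the member mrps-18C.

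Many members lie close behind another gene. A protein-coding gene on the same strand ends within 500 bases upstream of 24 of the 66 members (36.4%), against 19.3% of 14527 protein-coding genes tested. Of 23 such neighbours with enough counts, 7 fell and 4 rose in SIN against WT, where 13.3% and 12.1% of all genes tested did. The neighbours had a median log2 fold change of -0.16, while the members behind them had a median of -0.44. Spearman's rho between neighbour and member was 0.21 over these 23 pairs. Some pairs moved apart: clsp-1, upstream of mrpl-54, had 179 and 154 CPM in SIN, 118 and 113 in WT and 99.9 and 98.2 in N2, and rose by 0.53 on the log2 scale against WT (edgeR adjusted p = 0.0132), where mrpl-54 fell by 1.01. Another pair fell together: cct-2, for a subunit of the cytosolic chaperonin, ends 25 bases upstream of mrpl-50, and the log2 fold changes were -0.76 (edgeR adjusted p = 0.0161) and -0.75 (edgeR adjusted p = 0.0320). The members mrps-2 and mrpl-4 are themselves neighbours, 105 bases apart, with log2 fold changes of -0.58 and -0.27 in SIN against WT (edgeR adjusted p = 0.0189 and 0.126). These pairs were picked after their values were seen.

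By chromosome the members number 14 on I, 12 on II, 21 on III, 10 on IV and 9 on V.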
